A study of Mus musculus with 19 samples.

Results

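The subunits of the mitochondrial respiratory chain and of ATP synthase were followed in fetal and adult blood stem and progenitor cells. They were chosen by gene name from the protein-coding rows of the deposited exon count table: names beginning Ndufa, Ndufb, Ndufc, Ndufs or Ndufv with a digit, Ndufab1, Sdha to Sdhd, names beginning Uqcr, Cyc1, names from Cox4 to Cox8, and names beginning Atp5, with the Ndufaf assembly factors left out. This gave 87 genes of 20870 protein-coding and 25124 listed genes: 37 of complex I, 4 of complex II, 9 of complex III, 20 of complex IV and 17 of complex V. Subunits encoded by mitochondrial DNA were not analysed here. Of the 87 genes, 78 encode subunits in general use and 9 are isoforms or copies known for, or likely to have, restricted expression, here called restricted isoforms (Ndufb4c, Cox4i2, Cox6a2, Cox6b2, Cox7a1, Cox7b2, Cox8b, Cox8c and Ndufa4l2).

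Complexes I and II pass electrons from NADH and succinate to ubiquinone, complex III passes them on to cytochrome c, and complex IV hands them to oxygen. Complexes I, III and IV pump protons, and complex V, the ATP synthase, uses the returning protons to make ATP. Hematopoietic stem cells are known for a quiet, mostly glycolytic state in adult marrow, and for leaving it as they divide and differentiate.

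The cells were sorted from C57BL/6 mice, either from fetal liver at E14.5 (embryonic age in days) or from the bone marrow of adults aged 12 weeks. Hematopoietic stem cells (HSCs) were gated as lineage-negative cKit+ Sca1+ CD48- CD150+ Flt3-, and lymphoid-primed multipotent progenitors (LMPPs) as lineage-negative cKit+ Sca1+ CD48+ CD150- Flt3+. The labels place CD11b in the lineage gate of the adult cells only, so this step differed with age. The labels name no transgene and no treatment. RNA-seq covered 3 adult HSC, 2 fetal HSC, 3 adult LMPP and 3 fetal LMPP libraries, and chromatin accessibility (ATAC-seq) covered 2 libraries per group, used here as 1 peak list per group. The labels number the replicates but name no separate animals or pools, so the p-values measure only the spread between these libraries, which may be technical.

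The RNA-seq libraries held between 19799398.5 and 64783926.5 exon counts, and the lowest count of any of the 78 general subunit genes in any library was 1068. Counting error was therefore small beside the spread between libraries for these genes, and it mattered only for the rare isoforms. The 3 libraries adult HSC 3, adult LMPP 3 and fetal LMPP 1 stood apart from their groups on the third principal component, and counts without them were an alternative chosen after seeing the data. These were also the libraries with the most subunit RNA in their groups: adult HSC 3 was the highest of its group for 80 of the 83 subunit genes tested, against 42.8% of all 14720 genes tested, adult LMPP 3 for 76 against 39.3%, and fetal LMPP 1 for 62 against 46.8%. The main counts below are given with and without these 3 libraries. The 6 HSC markers checked summed to between 1242 and 1592 CPM (counts scaled to the library size) in HSCs and at most 423 CPM in LMPPs, and the 6 LMPP markers to at least 1118 CPM in LMPPs and at most 75.1 CPM in HSCs. Other genes also differed in the 3 libraries that stood apart. The basophil marker Prss34 was 96.2 CPM in adult HSC 3 and 0 CPM in adult HSC 1 and 2. It was 39.3 CPM in adult LMPP 3 beside 7.48 and 0.644 CPM. The 6 neutrophil markers summed to 5.39 to 29.3 CPM in fetal LMPPs, highest in fetal LMPP 1. Ubb took 2.68% of counts in adult HSC 3, 2.59% in adult LMPP 3 and at most 1.54% elsewhere. Their part in the results was not tested. RNA was measured in bulk, so fewer cells with a transcript and less of it per cell cannot be told apart.

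Most of these genes had an accessible promoter in all 4 cell populations. A peak of the deposited ATAC-seq lists lay within 500 bases of the transcript start of 80 of the 87 genes in adult HSCs, 80 in fetal HSCs, 79 in adult LMPPs and 79 in fetal LMPPs. These are 92.0, 92.0, 90.8 and 90.8%, beside 59.9, 59.2, 56.9 and 54.2% of all protein-coding genes. Among genes tested for RNA, 80, 80, 79 and 79 of 83 subunit genes had one, beside 83.5, 82.0, 80.6 and 76.6% of the protein-coding genes. The genes without a promoter peak in any list were all restricted isoforms or copies (Ndufb4c, Cox6a2, Cox7b2, Cox8b, Cox8c and Ndufa4l2). Only Ndufa9, Ndufb8, Uqcr11, Cox6c and Cox4i2 had a peak in some lists and not in others. With 1 list per group there is no spread between replicates, and the lists differ in length, so no change in accessibility was read from them.

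Promoter sequences were available for 69 of the 87 genes in the RefSeq table (GRCm38.p6, 250 bases before to 50 after the start). They were searched on both strands for letters recognised by factors known for acting at genes of respiration. The NRF1 motif (nuclear respiratory factor 1; GCGCA, any base, then GCGC) stood in 16 of the 69 promoters, 23.2%, against 9.16% of the promoters of tested genes. CCGGAAG (bound by GABP and other ETS factors) also stood in 16, 23.2% against 16.2%, AANATGGCG (YY1) in 8, 11.6% against 4.53%, and TCAAGGTCA (ESRRA) in 2, 2.9% against 0.31%. Over all 32851 promoters of the table the shares were 4.6, 8.86, 2.38 and 0.423%. The NRF1 letters were found in 7 of 32 complex I promoters, 5 of 15 complex V promoters, 2 of 3 of complex II, 1 of 5 of complex III and 1 of 14 of complex IV. A match is a description of the letters and not of binding.

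The promoters of 5 genes are shown because their genes were higher in fetal LMPPs than in fetal HSCs and because between them they hold each of the motifs. They belong to Sdha, the succinate-oxidising flavoprotein (chr13:74350191-74350490, minus strand); Cox6a1 (chr5:115348909-115349208, minus) and Cox6b1 (chr7:30626065-30626364, minus), subunits of complex IV; Atp5b, the catalytic beta subunit of ATP synthase (chr10:128083057-128083356, plus); and Atp5g3, a gene of its proton-carrying c ring (chr2:73911277-73911576, minus). Each reads 5′ to 3′ on the strand of its gene, with motif letters in capitals.
Sdha: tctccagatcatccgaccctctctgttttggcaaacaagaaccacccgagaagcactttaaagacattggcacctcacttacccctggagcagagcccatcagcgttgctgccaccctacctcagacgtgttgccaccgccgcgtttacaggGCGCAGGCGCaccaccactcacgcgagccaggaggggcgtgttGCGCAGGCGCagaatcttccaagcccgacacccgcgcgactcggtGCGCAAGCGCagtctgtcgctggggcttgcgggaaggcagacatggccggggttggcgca
Cox6a1: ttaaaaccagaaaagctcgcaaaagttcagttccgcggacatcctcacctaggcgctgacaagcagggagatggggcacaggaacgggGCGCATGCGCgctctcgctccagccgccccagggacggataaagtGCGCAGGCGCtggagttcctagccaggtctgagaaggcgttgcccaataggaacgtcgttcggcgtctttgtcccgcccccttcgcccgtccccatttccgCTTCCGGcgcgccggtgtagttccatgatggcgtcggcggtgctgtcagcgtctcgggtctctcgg
Cox6b1: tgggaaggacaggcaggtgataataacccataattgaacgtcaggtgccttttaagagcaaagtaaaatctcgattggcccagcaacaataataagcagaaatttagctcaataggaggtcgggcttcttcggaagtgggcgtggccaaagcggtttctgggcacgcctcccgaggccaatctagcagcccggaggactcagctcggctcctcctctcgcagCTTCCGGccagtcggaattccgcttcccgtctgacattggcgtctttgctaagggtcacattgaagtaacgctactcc
Atp5b: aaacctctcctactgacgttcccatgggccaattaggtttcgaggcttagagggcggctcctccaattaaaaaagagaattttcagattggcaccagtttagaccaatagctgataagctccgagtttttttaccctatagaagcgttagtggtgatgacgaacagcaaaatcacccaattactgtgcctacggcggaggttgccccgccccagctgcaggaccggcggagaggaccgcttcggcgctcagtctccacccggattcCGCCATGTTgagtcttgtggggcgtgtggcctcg
Atp5g3: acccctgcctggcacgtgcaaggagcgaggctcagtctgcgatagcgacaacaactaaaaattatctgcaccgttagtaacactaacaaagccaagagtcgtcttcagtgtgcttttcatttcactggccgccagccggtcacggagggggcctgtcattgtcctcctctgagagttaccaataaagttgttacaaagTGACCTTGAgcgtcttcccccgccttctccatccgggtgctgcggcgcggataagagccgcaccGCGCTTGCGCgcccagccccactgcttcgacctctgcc
The capitals are 3 NRF1 sites in Sdha, beginning at bases 153, 196 and 241 of the window. Cox6a1 has 2 NRF1 places, at bases 89 and 134, and a GABP site at base 235. Cox6b1 holds a GABP site at base 223, Atp5b a YY1 site at base 267, and Atp5g3 an ESRRA site at base 199 with an NRF1 site at base 263. A peak lay at all 5 of these promoters in each of the 4 lists.

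Subunit RNA was most abundant in fetal LMPPs. The 87 genes summed to 13648, 12968 and 18904 CPM in the adult HSC libraries, 16185 and 14444 in fetal HSCs, 17542, 16132 and 22527 in adult LMPPs, and 26858, 23741 and 22159 in fetal LMPPs. Fetal LMPPs thus lay above both HSC groups in every library, while adult LMPPs overlapped adult HSCs through adult HSC 3 and overlapped the fetal LMPPs through adult LMPP 3. As a share of all counts the genes took 1.45 to 1.85% in adult HSCs, 1.58 to 1.74% in fetal HSCs, 1.65 to 2.08% in adult LMPPs and 2.09 to 2.33% in fetal LMPPs. The CPM values use TMM scaling factors, which ran from 0.8691 to 1.12. Sums get no test here.

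The ratio between groups differed from complex to complex. Between fetal HSCs and fetal LMPPs the mean sum was 1.52 times as high for complex I, 1.57 for II, 1.53 for III, 1.66 for IV and 1.62 for V. Between adult HSCs and adult LMPPs it was 1.51 times as high for complex IV, and 1.19, 1.17, 1.1 and 1.22 times for complexes I, II, III and V. Per length these adult ratios were 1.31 for complex IV and 1.03, 1.09, 0.995 and 1.08 for the others. The mean per-length level of Ndufa4 alone was 901 in adult HSCs and 2307 in adult LMPPs, within complex IV means of 7316 and 9560. Much of the per-length difference of complex IV thus lay in this gene. On the CPM scale the log2 ratio of complex III turned from 0.14 to -0.11 without adult LMPP 3 and to -0.02 without adult HSC 2. Over all fits with single libraries left out it ran from -0.11 to 0.43. Without the 3 libraries that stood apart the ratio of the mean sums was 1.13. The complex III gene Uqcrc1 varied widely, at 534, 327 and 903 CPM in adult HSCs and 360, 324 and 798 CPM in adult LMPPs. The complex III sums were 1607, 1393 and 2500 CPM and 1784, 1618 and 2670 CPM. The median log2 difference of its 9 genes was 0.33, with 8 values positive. On the CPM scale complex IV was the only one of the 5 whose adult LMPP libraries (3194, 2805 and 3736 CPM) all lay above the adult HSC libraries (1968, 1953 and 2517 CPM). Per length complex V separated as well, at 10780, 10785 and 11345 in adult LMPPs against 10147, 10165 and 10113 in adult HSCs. Between adult and fetal LMPPs the largest ratio was that of complex V, 1.44, with 5933, 5771 and 7459 CPM in adults and 10245, 8915 and 8477 in fetal cells, so that the groups did not overlap. Fetal and adult HSCs differed by ratios from 0.93 for complex I to 1.09 for complex V, and without adult HSC 3 and the other 2 libraries that stood apart by 1.11 for complex I and 1.19 for complex V.

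**Figure D1:**
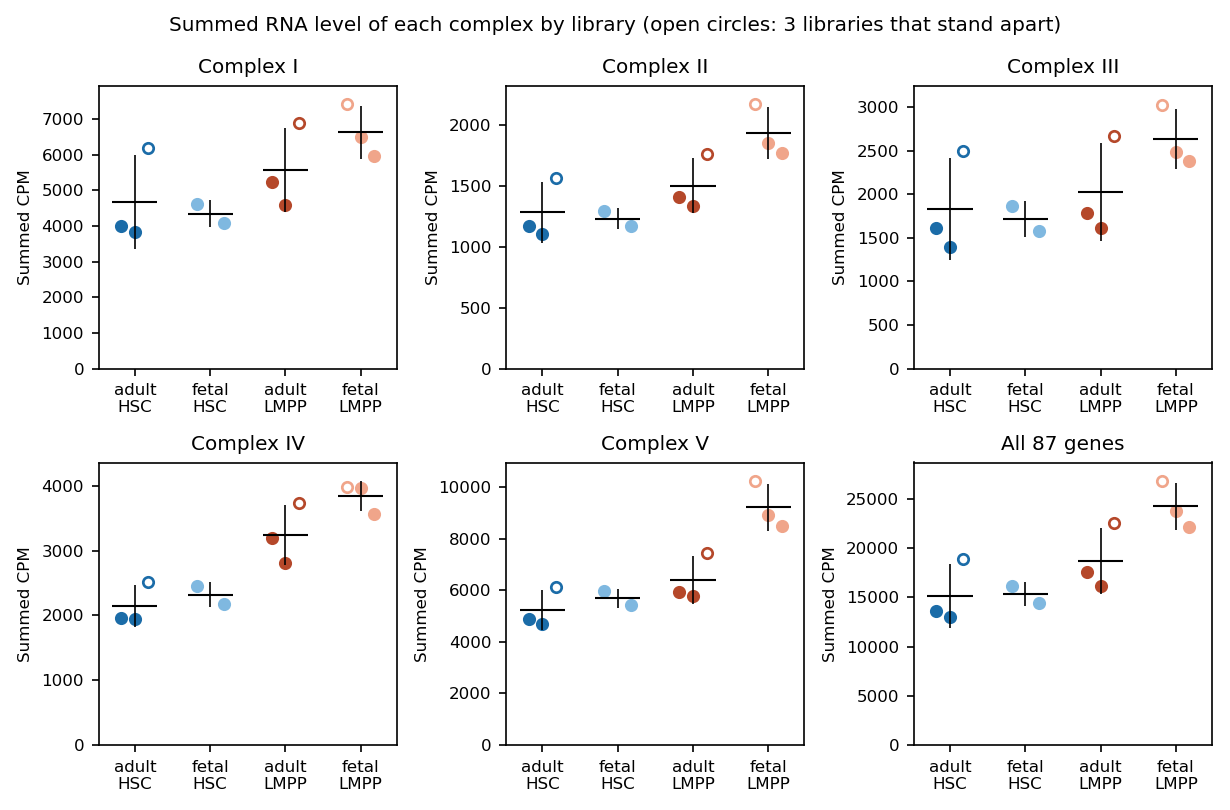
Summed CPM of the genes of each complex and of all 87 genes, by library (points), with the group mean (horizontal bar) and SD (vertical bar, n = 3, 2, 3 and 3). Open circles are adult HSC 3, adult LMPP 3 and fetal LMPP 1, each the highest of its group in every panel. All fetal LMPP points lie above all HSC points for complexes II, IV and V, while for complexes I and III adult HSC 3 reaches into the fetal LMPP range.

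Long transcripts weigh more in CPM, so the sums were also taken per length, as TPM (counts divided by exon length and scaled to one total in every library). On this scale complex V in adult HSCs was 10147, 10165 and 10113 TPM and complex IV 7299, 7365 and 7283 TPM. Both were then level across the adult HSC libraries, adult HSC 3 included, whereas complex I was 11043, 10807 and 13525 TPM there. The per-length ratio between fetal HSCs and LMPPs was 1.32 for complex IV, 1.24 for complex V and 1.19 for complex I. Among single genes, the highest mean TPM over all libraries was that of Atp5b at 1821, followed within complex IV by Ndufa4 at 1539. The highest gene of complex III was Uqcrb at 910 TPM, of complex I Ndufb8 at 819 and of complex II Sdhb at 577. The lowest general subunit gene on this scale was Ndufa11, an accessory subunit of complex I, at 61.9 TPM. Its deposited exon length is 2655 bases. By mean CPM, at 90.6, it was above Ndufa5 (80.3) and Ndufa6 (77.5), so its last place depends on that length.

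**Figure D2:**
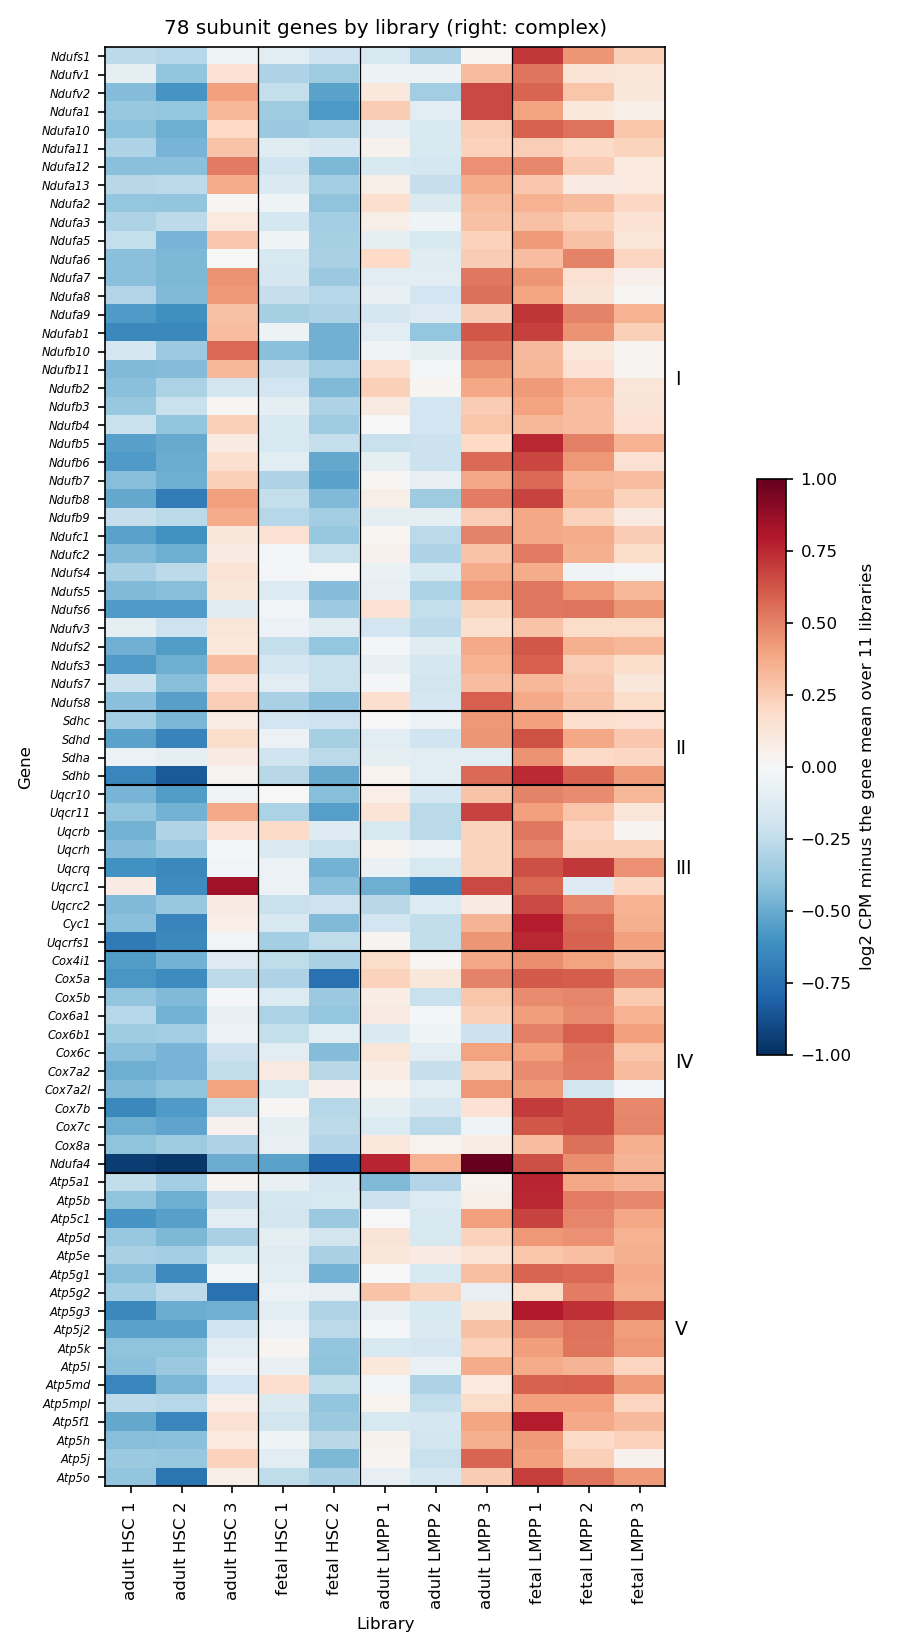
log2 CPM of the 78 general subunit genes in each library, minus the mean of that gene over the 11 libraries (colour, from -1 to 1); lines separate the groups and the complexes. The fetal LMPP columns are red for most genes, and adult HSC 3 and adult LMPP 3 are redder than the other libraries of their groups, most of all in complex I.

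The comparison of LMPPs with HSCs in the fetus gave the most calls with all libraries. Of 83 subunit genes tested, 34 rose and 1 fell in fetal LMPPs at an adjusted p under 0.05 (edgeR, Benjamini-Hochberg over all 14720 genes), while 8.21% of all genes rose and 9.85% fell. The median log2 difference was 0.63 for the subunit genes and -0.08 for all genes, and 82 of the 83 values were positive. Cox6a2, among the genes that rose, passed the filter on low counts only through the LMPPs, so its call is no support. Of the 78 general subunit genes 33 rose and none fell. In 78 of the 83 genes every fetal LMPP library lay above every fetal HSC library, against 27.6% of all genes. The calls rest on only 2 fetal HSC libraries: 3 genes rose when fetal HSC 1 was left out and 2 when fetal HSC 2 was. Either fit leaves 1 fetal HSC library, whose spread is then taken to be that of the other groups, so calls lost there come with a smaller group. They numbered 13 without fetal LMPP 1, 8 without fetal LMPP 2, 53 without adult HSC 3, and 71 without all 3 libraries that stood apart, where 17.9% of all genes rose. With library totals in place of scaling factors 18 rose, at a median of 0.37 beside -0.33 for all genes. Markers of other cells differed as well. The 8 erythroblast markers summed to 975 to 1106 CPM in fetal HSCs and 135 to 432 CPM in fetal LMPPs. The 6 macrophage markers, mainly Csf1r in LMPPs, summed to 20.8 to 25.4 and 77.0 to 171 CPM. The 4 T and NK cell markers, nearly all Nkg7, summed to 6.53 to 8.22 and 37.6 to 52.2 CPM. Their part in this result was not tested.

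By complex, 7 of 37 genes of complex I rose in fetal LMPPs, 2 of 4 of complex II, 4 of 9 of complex III, 11 of 16 tested of complex IV and 10 of 17 of complex V. The medians were 0.59, 0.58, 0.71, 0.68 and 0.63. In ATP synthase, all 5 genes of the F1 part, head and central stalk, rose (Atp5a1, Atp5b, Atp5c1, Atp5d and Atp5e). So did 2 of 3 c ring genes, 2 of 5 membrane accessory genes and 1 of 4 genes of the peripheral stalk. In complex IV, 10 of the 12 general subunit genes rose. Without the 3 libraries that stood apart the counts were 31, 4, 7, 12 and 17 from complex I to V.

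**Figure D3:**
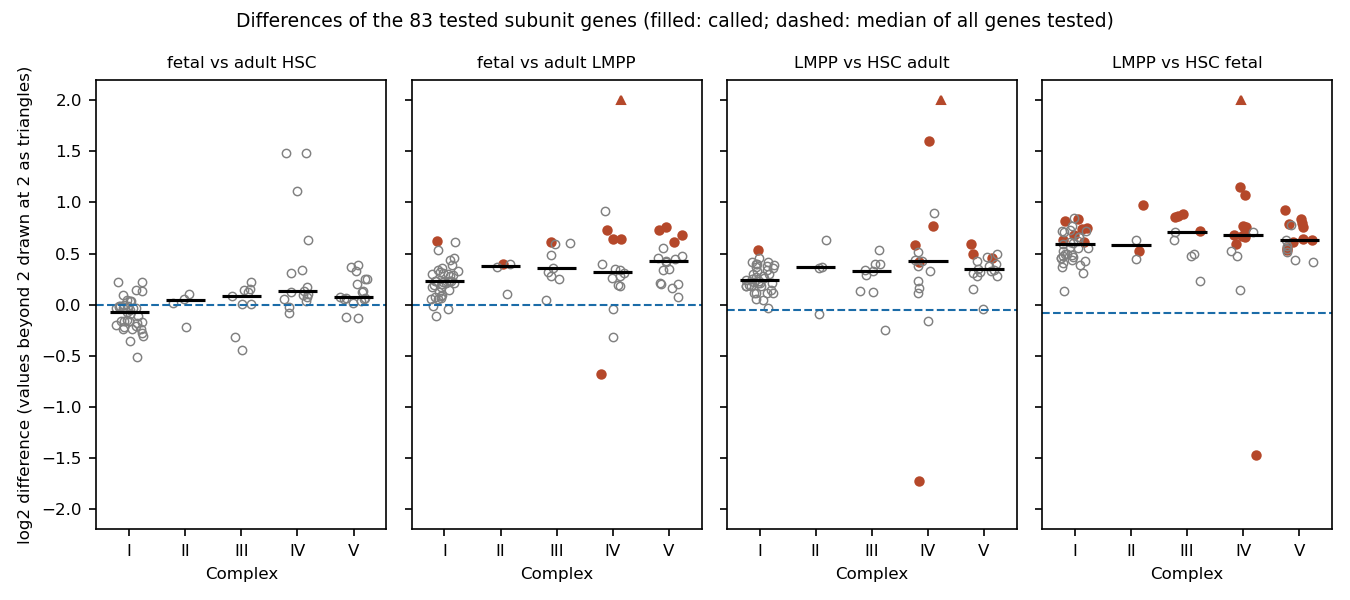
log2 differences of the 83 tested subunit genes by complex in 4 comparisons (filled where the adjusted p was under 0.05), with the median of each complex (bar) and of all 14720 genes (dashed line); values beyond 2 are triangles at 2. In the comparison of fetal LMPPs with fetal HSCs all but 1 point lie above 0, at medians between 0.58 and 0.71, while in the comparison of fetal with adult HSCs no point is filled.

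Among the catalytic and redox subunits, Atp5b was 1606 and 1623 CPM in fetal HSCs and 3067, 2587 and 2542 CPM in fetal LMPPs. All fetal LMPP values exceeded all others in the study. The log2 difference was 0.76 ± 0.14 (SE, adjusted p = 0.0061). Sdhb, the iron-sulfur subunit of complex II, was 270 and 231 CPM in fetal HSCs and 550, 494 and 439 in fetal LMPPs (log2 0.98 ± 0.28, adjusted p = 0.036). Sdha rose less, from 532 and 509 to 837, 700 and 708 CPM (0.52 ± 0.13, adjusted p = 0.018). Without fetal HSC 2 these adjusted p-values were 0.063, 0.25 and 0.16. In complex III, Uqcrfs1, the Rieske iron-sulfur protein, went from 131 and 139 to 280, 250 and 221 CPM (0.89 ± 0.25, adjusted p = 0.035), and Cyc1, cytochrome c1, from 241 and 198 to 463, 399 and 343 CPM (0.87 ± 0.26, adjusted p = 0.04). Both calls ended when either fetal HSC library was left out (adjusted p up to 0.18 and 0.28). Ndufs1, the largest iron-sulfur subunit of complex I, went from 181 and 169 to 319, 265 and 230 CPM (0.63 ± 0.17, adjusted p = 0.032), and its flavoprotein neighbour Ndufv1 from 143 and 138 to 256, 195 and 193 (0.62 ± 0.2, adjusted p = 0.06). The adjusted p of Ndufs1 was 0.23 without fetal HSC 2. Ndufs1 overlaps a noncoding gene on the other strand, and the library kit keeps no strand.

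Cox5a, a matrix-side subunit, was the general gene of complex IV with the next largest rise after Ndufa4. Its levels were 178 and 131 CPM in fetal HSCs and 336, 335 and 306 CPM in fetal LMPPs (log2 1.07 ± 0.19, adjusted p = 0.0045). The gene held its call in 19 of 20 alternatives and lost it without fetal HSC 2, at an adjusted p of 0.07. Cox6a1 (0.77 ± 0.15, adjusted p = 0.0079), Cox6b1 (0.68 ± 0.14, 0.01), Cox4i1 (0.68 ± 0.17, 0.02) and Cox8a (0.59 ± 0.13, 0.013) rose as well. Leaving out fetal HSC 2 took their adjusted p-values to 0.095, 0.074, 0.16 and 0.17. Cox7a2l did not pass the test (0.14 ± 0.29, adjusted p = 0.78), and its fetal LMPP values of 186, 122 and 136 CPM overlapped the 124 and 144 CPM of fetal HSCs.

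The c ring is known to be encoded by 3 genes with one mature protein, so their RNAs can be compared as shares of one product. Atp5g3 was 202, 224 and 227 CPM in adult HSCs, 292 and 256 in fetal HSCs, 299, 284 and 342 in adult LMPPs and 548, 523 and 492 in fetal LMPPs. It was the one general subunit gene that rose in all 3 comparisons in which any subunit gene was called. The log2 difference was 0.93 ± 0.14 (adjusted p = 0.0022) between fetal LMPPs and HSCs, 0.76 ± 0.12 (adjusted p = 0.0026) between fetal and adult LMPPs and 0.5 ± 0.12 (adjusted p = 0.017) between adult LMPPs and HSCs. The first and second of these held in all 20 alternatives, and the third ended with only the groups compared in the fit (adjusted p = 0.071), without adult HSC 1 or without adult LMPP 3. Per length, Atp5g3 made up 50.2, 47.3 and 48.8% of c ring RNA in fetal LMPPs and 40.1 to 44.5% in the other 8 libraries. Atp5g2 made up 14.6, 18.1 and 18% in fetal LMPPs and 14.9% to 24.2% elsewhere, with its lowest values in the libraries that stood apart.

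**Figure D4:**
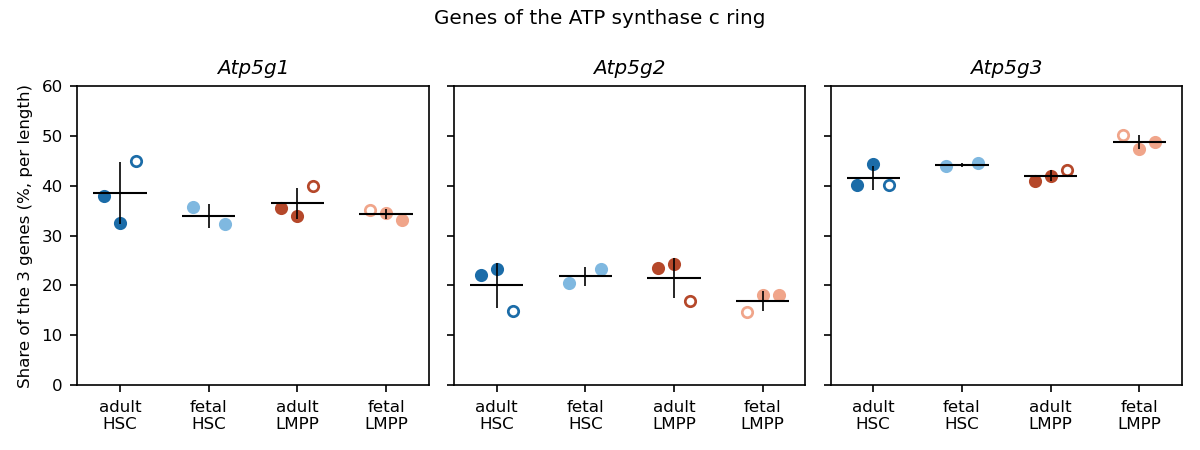
Shares of Atp5g1, Atp5g2 and Atp5g3 in the summed per-length level of the 3 genes (%), by library, with group means and SDs; open circles are the 3 libraries that stood apart. The fetal LMPP points of Atp5g3, 47.3 to 50.2%, lie above all others, and the Atp5g2 points of adult HSC 3, adult LMPP 3 and fetal LMPP 1 are the lowest of their groups.

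In the adult marrow fewer subunit genes passed the test between LMPPs and HSCs. Of 83 subunit genes 9 rose and 1 fell, while 7.76% of all genes rose and 9.33% fell. The median log2 difference was 0.33 (all genes -0.05), and 77 of the 83 values were positive. The risers were 5 of 16 genes of complex IV (Ndufa4, Cox5a, Cox4i1, Cox8a and Cox6a2), 3 of 17 of complex V (Atp5g2, Atp5g3 and Atp5d), 1 of 37 of complex I (Ndufb2) and none of complexes II and III. Cox6a2 passed the filter on low counts only through the LMPPs, so its call is no support. Of the 78 general subunit genes 8 rose and none fell, a share near that of all genes. In complex IV 4 of the 12 general genes rose. All adult LMPP libraries lay above all adult HSC libraries in 17 genes, 10 of them of complex IV with Cox6a2 included, against 13.7% of all genes. Without the 3 libraries that stood apart 40 genes rose, where 14.0% of all genes did: 12, 3, 4, 9 and 12 from complex I to V. Without adult HSC 3 alone 31 rose. The count was 3 without adult HSC 1, 5 without adult HSC 2, 4 without adult LMPP 1 and 4 without adult LMPP 3. In this comparison the erythroblast markers summed to 79.1 to 199 CPM in HSCs and 24.1 to 51.4 CPM in LMPPs. Macrophage markers summed to 11.1 to 32.1 and 58.2 to 71.1 CPM, and mast cell and basophil markers to 7.16 to 132 and 19.5 to 74.1 CPM. T and NK cell markers, nearly all Nkg7, summed to 53.7 to 119 and 257 to 363 CPM. Their part in this result was not tested.

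Ndufa4 had the largest change of any general subunit gene in this comparison. The gene (chr6:11900372-11907450, mm10) was named as a complex I subunit and is now known as a subunit of complex IV. Its levels were 197, 194 and 270 CPM in adult HSCs, 262 and 218 in fetal HSCs, 644, 485 and 869 in adult LMPPs and 593, 526 and 481 in fetal LMPPs. LMPPs of both ages exceeded HSCs of both ages in every library, and the 2 LMPP groups overlapped. The log2 difference was 1.6 ± 0.22 in adults (adjusted p = 0.00088), called in all 20 alternatives, and 1.15 ± 0.25 in the fetus (adjusted p = 0.012). The fetal call ended without either fetal HSC library, with an adjusted p of 0.13 without fetal HSC 2.

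Cox5a was 147, 142 and 183 CPM in adult HSCs and 258, 238 and 310 CPM in adult LMPPs (log2 0.77 ± 0.16, adjusted p = 0.0094), called in all 20 alternatives. Cox4i1, the general form of the largest nuclear subunit of complex IV, was 260, 276 and 351 CPM and 436, 387 and 500 CPM (0.58 ± 0.15, adjusted p = 0.021). Its call ended with only the groups compared in the fit (adjusted p = 0.08), and without adult HSC 1 or 2 or adult LMPP 1 or 3. Atp5d, a small subunit of the F1 stalk, Atp5g2, Ndufb2 and Cox8a had differences of 0.46, 0.59, 0.53 and 0.42 that held in 13, 11, 10 and 12 of 20 alternatives. With the replicate number as a block, the adjusted p was 0.058 for Ndufb2 and 0.051 for Cox8a. Same-numbered adult libraries tended to deviate together, but no label states that they are paired. The succinate dehydrogenase subunit Sdha stood at 589, 576 and 648 CPM in adult HSCs and 573, 565 and 566 CPM in adult LMPPs, a log2 difference of -0.09 with an interval from -0.31 to 0.13 (adjusted p = 0.67).

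Between fetal and adult LMPPs the genes that rose included 4 of complex IV and 4 of ATP synthase. Of 83 genes 11 rose and 1 fell with fetal age, beside 7.08% and 8.29% of all genes, at a median log2 difference of 0.30 (all genes 0.00). The risers were Ndufs1 of complex I, Sdha of complex II, Uqcrc2 of complex III, Cox6b1, Cox7b, Cox7c and Cox4i2 of complex IV, and Atp5a1, Atp5b, Atp5g3 and Atp5md of complex V. In 31 of 83 genes every fetal library lay above every adult one, against 17.8% of all genes. From complex I to V these were 6 of 37, 1 of 4, 5 of 9, 8 of 16 and 11 of 17 genes. Without the 3 libraries that stood apart 38 rose and 1 fell, where 15.2% of all genes rose. One library could decide the count, which was 18 when adult HSC 3 was removed, 4 when adult LMPP 2 was, and 5 on removing adult LMPP 1, fetal LMPP 1 or fetal LMPP 2.

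Cox6b1, on the intermembrane face of complex IV, was 188, 202 and 179 CPM in adult LMPPs and 295, 315 and 277 CPM in fetal LMPPs. The LMPP groups did not overlap, and the adult LMPPs overlapped the HSC libraries, 163 to 200 CPM. The log2 difference was 0.64 ± 0.13 (adjusted p = 0.0076). Atp5b rose from 1566, 1655 and 1897 CPM to 3067, 2587 and 2542 CPM (0.68 ± 0.13, adjusted p = 0.0055). Cox6b1, Atp5b and Atp5g3 were called in all 20 alternatives. Atp5a1, the other large subunit of the F1 head, was 833, 925 and 1161 CPM in adult and 1919, 1479 and 1431 CPM in fetal LMPPs (0.73 ± 0.17, adjusted p = 0.016), and its adjusted p was 0.067 without adult LMPP 1. Cox7c (0.73 ± 0.17, adjusted p = 0.014) kept its call in 18 alternatives, Cox7b (0.64 ± 0.16, 0.02) and Ndufs1 (0.62 ± 0.15, 0.022) in 16, and Uqcrc2 (0.61 ± 0.17, 0.034) and Atp5md (0.61 ± 0.17, 0.04) in 13. Each of these calls ended without adult LMPP 2, at adjusted p-values no higher than 0.12. Sdha (0.4 ± 0.11, adjusted p = 0.036) held in 8 of 20 alternatives. Markers of other cells also differed with age in LMPPs. The 8 erythroblast markers summed to 135 to 432 CPM in fetal and 24.1 to 51.4 CPM in adult libraries, and the 4 T and NK cell markers to 37.6 to 52.2 and 257 to 363 CPM. The T and NK sum was nearly all Nkg7, with Cd3e and Ncr1 at 0 CPM in all LMPP libraries. Cd3g went the other way, at means of 0.568 CPM in fetal and 0.0467 CPM in adult LMPPs. The 6 macrophage markers summed to 77.0 to 171 and 58.2 to 71.1 CPM, mainly through Csf1r at a mean of 114 CPM in fetal and 32.8 CPM in adult LMPPs, whereas Cd68 was 10.6 and 27.6 CPM and C1qb 0.575 and 3.8 CPM. Their part in these results was not tested.

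Between fetal and adult HSCs none of the 83 subunit genes passed the edgeR test with all libraries in either direction, beside 2.07% of all genes that rose and 2.89% that fell, and 3 had an unadjusted p under 0.05 (Cox4i2, Cox6b2 and Atp5g3). DESeq2 called Cox4i2 (adjusted p = 0.0039) and Cox6b2 (0.011), where 4.42% of all genes rose and 6.01% fell, and edgeR with a stricter filter on low counts called Cox4i2 (adjusted p = 0.047). In 8 genes every fetal HSC library lay above every adult one, against 20.8% of all genes, and in 3 (Ndufb10, Ndufb9 and Sdha) below, against 20.3%. The median log2 difference was 0.03, and by complex -0.07, 0.04, 0.08, 0.13 and 0.07. Of the 37 complex I genes 28 were lower in fetal HSCs, but without the 3 libraries that stood apart 33 were higher and the median was 0.13. In that fit 7 genes rose (Cox4i2, Cox6b2, Cox7b, Sdhd, Atp5b, Atp5g3 and Atp5j2) and none fell, where 7.59% of all genes rose and 8.59% fell, so the share of subunit genes that rose was near that of all genes. The intervals allow modest changes with all libraries: that of Cyc1 ran from -0.48 to 0.5 and that of Atp5b from -0.08 to 0.47. The 8 erythroblast markers summed to 975 to 1106 CPM in the fetal HSC libraries and 79.1 to 199 CPM in the adult ones, mainly through Hbb-bt and Hbb-bs, with Alas2 at most 0.252 CPM in any library. Their part in these values was not tested.

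The age difference itself was compared between LMPPs and HSCs by an interaction term. No subunit gene passed, beside 0.387% and 0.543% of all genes, and 10 had an unadjusted p under 0.05. DESeq2 called 3: Cox4i2 and Sdha with a larger rise in LMPPs and Cox6b2 with the opposite (2.07% and 2.47% of all genes). The median of the interaction was 0.30 and 76 of 83 values were positive. Without the 3 libraries that stood apart the same 3 genes and Atp5a1 passed in edgeR (3 higher, 1 lower), where 2.29% and 3.18% of all genes did.

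The isoforms of complex IV had the widest differences. Cox6a2, the form of subunit VIa known from heart and skeletal muscle (chr7:128205435-128206366, mm10), was nearly confined to LMPPs. Its raw counts were 0, 0 and 3 in adult HSCs, 0 and 5 in fetal HSCs, 228, 523 and 376 in adult LMPPs and 380, 596 and 355 in fetal LMPPs. On the CPM scale the LMPP libraries were at 11.5, 14.7 and 12.3 in adults and 6.75, 22 and 15.1 in the fetus, and no HSC library exceeded 0.122. The summed rate was 535 times as high in adult LMPPs as in adult HSCs (95% exact binomial interval 183 to 2598) and 165 times in the fetus (70.7 to 510). These intervals cover counting error only, and reads without molecular identifiers are not independent molecules. It passed the filter on low counts only through the LMPPs, so its place among the genes that rose is no support and its values are a description. Beside Cox6a1, at 227 to 320 CPM in LMPPs, Cox6a2 was a minor form, 1.85 to 5.58% of the pair per length. It overlaps Itgad, on the other strand, by 69 bases, whose mean was 0.506 CPM in adult and 1.51 CPM in fetal LMPPs, and no list had a peak at its promoter.

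Cox4i2, the form of subunit IV known from lung and from the response to low oxygen (chr2:152754173-152765037, mm10), went against the general trend in adults. It was 2.44, 2.64 and 1.48 CPM in adult HSCs, 5.98 and 6.17 in fetal HSCs, 0.909, 0.644 and 0.426 in adult LMPPs and 7.1, 9.9 and 8.41 in fetal LMPPs. None of the 4 groups overlapped another, and the order was fetal LMPP, fetal HSC, adult HSC, adult LMPP. Fetal LMPPs exceeded adult LMPPs by 3.69 ± 0.4 on the log2 scale (adjusted p = 0.00034, called in all 20 alternatives), and adult LMPPs were below adult HSCs by a log2 difference of -1.73 ± 0.38 (adjusted p = 0.011, called in 19). The difference between fetal and adult HSCs was 1.48 ± 0.39 (adjusted p = 0.061), and 0.041 without the libraries that stood apart. It made up at most 2.02% of the subunit IV RNA per length, the rest being Cox4i1. Its promoter had a peak in 3 lists and none in that of fetal LMPPs, where its RNA was highest, but that list is the shortest.

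Cox6b2, a form of subunit VIb known from testis (chr7:4751792-4753094, mm10), was the one subunit gene that fell in fetal LMPPs. Cox6b2 stood at 18.3, 18 and 17.5 CPM in adult HSCs, 26.2 and 29.3 in fetal HSCs, 16.5, 18.4 and 13.4 in adult LMPPs and 9.34, 10.1 and 10.5 in fetal LMPPs. Fetal HSCs were the highest and fetal LMPPs the lowest, with no overlap between these and the adult groups. The log2 difference between fetal LMPPs and HSCs was -1.47 ± 0.21 (adjusted p = 0.0018, called in all 20 alternatives). Against adult LMPPs it was -0.68 ± 0.19 (adjusted p = 0.037), held in 8 of 20 alternatives and ended by leaving out any one of 9 libraries or by the replicate block. Together with Cox6b1, which rose, this took Cox6b2 from 10.7 and 10.9% of the pair per length in fetal HSCs to 2.48, 2.52 and 2.97% in fetal LMPPs. It was 6.58 to 8.27% in adult HSCs and 5.68 to 6.83% in adult LMPPs.

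**Figure D5:**
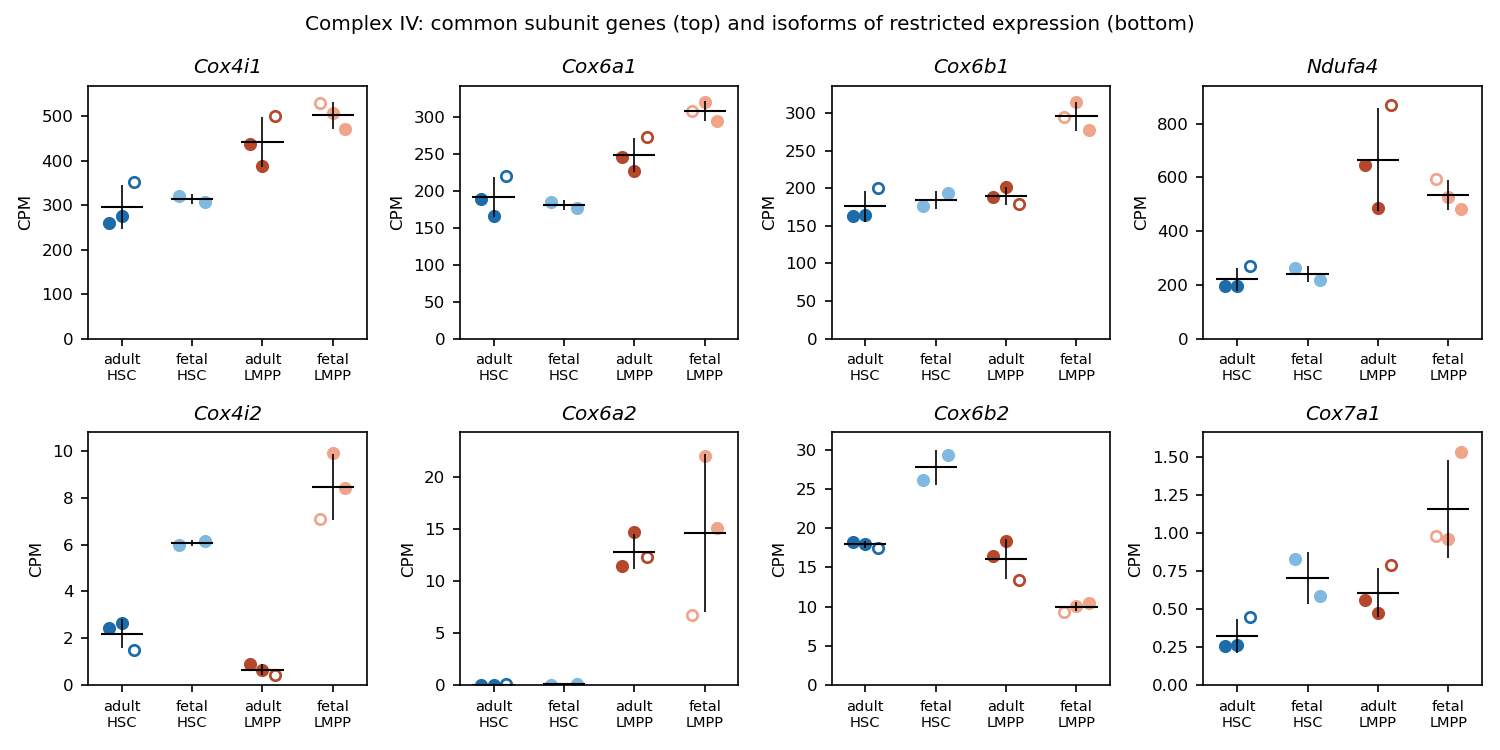
CPM of 4 general complex IV genes (top) and 4 isoforms (bottom) by library, with group means and SDs (each axis starts at 0); open circles are the 3 libraries that stood apart. Cox6a2 is at or near 0 in all 5 HSC libraries, Cox4i2 is lowest in adult LMPPs, and Cox6b2 is lowest in fetal LMPPs while Cox6b1 is highest there.

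Of the other restricted isoforms, Cox7a1, Cox7b2, Cox8b, Cox8c and Ndufa4l2 were low or not detected, while Ndufb4c stood at 53.6 to 90.1 CPM. Cox7a1, the muscle form of subunit VIIa, ranged from 0.254 to 1.53 CPM and passed no test, with Cox7a2 holding at least 98.5% of the pair per length. Cox7b2 had 29 raw counts in all libraries together, 21 of them in adult HSC 3, and Ndufa4l2, known as a hypoxia-induced relative of Ndufa4, had 119, 70 of them in that same library. Cox8b and Cox8c had no counts, which allows up to 3 counts in a library, or 0.0463 to 0.152 CPM. These 4 genes were not tested. Ndufb4c, a near copy of Ndufb4 on another chromosome, made up between 38.5 and 40.7% of the pair in every library, had no promoter peak, and may hold reads of Ndufb4. Its values are therefore uncertain. Ndufs5 likewise shares its locus with the pseudogene BC002163, at 88.5 to 146 mean CPM, and 17 subunit genes in all overlap another gene.

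Genes around the respiratory chain were counted in the same fits from lists of assembly factors, carriers and cofactors, regulators, the tricarboxylic acid cycle and the mitochondrial ribosome. Between fetal LMPPs and HSCs, 16 of 78 mitochondrial ribosome genes rose and none fell (median log2 0.59), 9 of 22 tested genes of the cycle rose and 2 fell (0.55), 4 of 24 carriers and cofactors rose and 1 fell (0.57), 3 of 52 assembly factors rose (0.31), and 1 of 26 regulators did, the mitochondrial protease gene Lonp1 (0.6 ± 0.18, adjusted p = 0.041). Of all genes 8.21% rose and 9.85% fell in this comparison, so assembly factors and regulators rose no more often than all genes did. The counts that follow run in the order mitochondrial ribosome, cycle, carriers and cofactors, assembly factors and regulators. In fetal against adult LMPPs 9, 7, 3, 3 and 0 genes rose and 0, 1, 2, 1 and 0 fell, beside 7.08% and 8.29% of all genes. In adult LMPPs against HSCs 2, 3, 1, 1 and 0 rose and 0, 1, 1, 0 and 0 fell, beside 7.76% and 9.33%. Between fetal and adult HSCs none rose and 1 fell, Coq8a of coenzyme Q synthesis, beside 2.07% and 2.89%. Without the 3 libraries that stood apart the counts were as follows, beside the shares of all genes. Between fetal LMPPs and HSCs 57, 13, 11, 9 and 6 rose and 0, 3, 1, 0 and 1 fell, beside 17.9% and 20.6%. In fetal against adult LMPPs 44, 12, 8, 6 and 5 rose and 0, 1, 2, 3 and 1 fell, beside 15.2% and 15.3%. In adult LMPPs against HSCs 25, 7, 4, 3 and 4 rose and 0, 3, 2, 0 and 2 fell, beside 14.0% and 15.9%. In fetal against adult HSCs 11, 4, 0, 2 and 0 rose and 0, 0, 4, 1 and 0 fell, beside 7.59% and 8.59%.

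In the citric acid cycle, fumarase (Fh1), the step after succinate dehydrogenase, was 117 and 110 CPM in fetal HSCs and 249, 260 and 257 CPM in fetal LMPPs (log2 1.17 ± 0.13, adjusted p = 0.00048). Cytochrome c (Cycs), the carrier between complexes III and IV, was 431 and 293 CPM and 1050, 869 and 713 CPM in the same groups (1.28 ± 0.36, adjusted p = 0.033). The uncoupling carrier Ucp2 took another order: 327, 306 and 286 CPM in adult HSCs, 251 and 286 in fetal HSCs, 623, 602 and 595 in adult LMPPs and 396, 390 and 421 in fetal LMPPs. It was highest in adult LMPPs and rose there against HSCs by 0.99 ± 0.11 (adjusted p = 0.00024). Coq8a, a gene of ubiquinone synthesis, fell with fetal age in both cell types, from 208, 186 and 317 CPM in adult to 58.2 and 68.8 CPM in fetal HSCs (-1.9 ± 0.25, adjusted p = 0.0016). Among the factors whose letters were searched in the promoters, Nrf1, Gabpa, Yy1 and Esrra passed no test, with log2 differences between fetal LMPPs and HSCs of 0.14, 0.06, -0.01 and 0.54. The coactivator gene Ppargc1a was at 0.887 to 4.48 CPM in all libraries and passed none either, and RNA level does not measure the activity of these factors. Gabpa overlaps the subunit gene Atp5j by 502 bases on the other strand, so their reads may mix.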

How the data were processed

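RNA was measured in 11 libraries made with a template-switching kit that keeps neither strand nor molecular identifiers. The authors deposited estimated counts per gene summed over exons (HOMER analyzeRepeats on mm10, per the file headers), with 22.5% of values not whole, which were rounded here. Per the submitters' processing notes, Trim Galore, STAR, RSEM, HOMER and DESeq2 were used, and Bowtie2 2.3.5, Picard, SAMtools 1.9 and MACS2, with the roles of the tools not given. The deposited peak lists, 1 per group, hold for each peak a score, a signal and a -log10 q from the authors' peak caller; peaks were used by position, the signal only to rank peaks within a list, and the -log10 q as a stricter limit of at least 10.

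Genes were filtered with filterByExpr, scaled by TMM and tested with edgeR 4.0.16 (R 4.3.3, limma 3.58.1, quasi-likelihood test, 4 group means over 11 libraries, Benjamini-Hochberg over 14720 genes). A gene was called at an adjusted p under 0.05. Intervals of log2 differences are approximate 95% intervals. Per-length values divide counts by the deposited exon length and are scaled to the same total in every library. DESeq2 1.42.0, other scalings and filters, a replicate block, single libraries left out, and a fit without or with a term for the 3 libraries that stood apart (both chosen after seeing the data) were alternatives. Depth was 19799398.5 to 64783926.5 counts per library. Deviations of same-numbered adult HSC and adult LMPP libraries correlated at 0.153, 0.306 and 0.472, while other same-numbered groups did not all exceed 0.1. The labels state no pairing, and adult HSC 1 correlated more with adult LMPP 2 (0.216) than with adult LMPP 1. The value of 0.472 joins adult HSC 3 and adult LMPP 3, which both stood apart. Whether the libraries are paired is thus not settled. The members and the lists were chosen with earlier results of these data known. The genes named are those called where 12 or fewer were, otherwise the 6 largest rises and falls, the lowest p of each complex, and a fixed set of catalytic subunits and isoform pairs.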

Additional observations from a re-analysis of the deposited data

How the results depend on the processing

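With 2 or 3 libraries a group, the number of genes called moved more than the differences did, and the causes were not tested. No alternative turned the direction of a called gene. Of values other than single genes, 464 stayed near the reported value and 65 moved. The counts that follow are of subunit genes, and the share of all genes called moved too. With all libraries 2.07, 7.08, 7.76 and 8.21% of all genes rose, in the order of the comparisons below. Without the 3 libraries that stood apart 7.59, 15.2, 14.0 and 17.9% did. In DESeq2 4.42% of all genes rose between fetal and adult HSCs. Between fetal and adult HSCs 2 genes rose in DESeq2, 1 with a stricter filter, 7 without the 3 libraries that stood apart and 5 with a term for them, and 0 to 1 with single libraries left out. Between fetal and adult LMPPs the numbers that rose were 38 and 40 in those last fits and 4 to 18 with single libraries left out, and the 1 that fell became 0 with no filter, with only the groups compared and with the replicate block (0 to 1 with single libraries left out). Between adult LMPPs and HSCs 3 rose and 0 fell with only the groups compared, 40 rose without the 3 libraries and 39 with their term, and 3 to 31 with single libraries left out. In the fetus 18 rose with library totals only (median 0.37), 70 with only the groups compared, 20 with the replicate block, 71 without the 3 libraries, 60 with their term and 2 to 53 with single libraries left out. For the interaction DESeq2 called 2 higher and 1 lower, the fit without the 3 libraries 3 and 1, their term 4 and 1, and single libraries left out 0 to 1 lower. Placing Ndufa4 in complex I gave that complex 2 genes that rose in adult LMPPs. The summed log2 ratios of fetal LMPPs to HSCs for complexes I to V and all genes were 0.25, 0.35, 0.21, 0.40, 0.32 and 0.30 per length and 0.36, 0.40, 0.36, 0.48, 0.44 and 0.41 by library totals, and that of complex IV in adults was 0.39 per length. Between adult LMPPs and HSCs, where a pairing by number is possible but not labelled, the replicate block ended the calls of Ndufb2 and Cox8a and no other. Depth limits only the rare isoforms.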
